A study of Mus musculus with 12 samples.

Results

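The 44 genes described here encode the proteins that take glucose into the cell, break it down to pyruvate, interconvert pyruvate and lactate, feed pyruvate into the mitochondrion, run the citric acid cycle and store glucose as glycogen. They were chosen by name, and their symbols were matched to the 33641 genes listed for each sample. All 44 were found, and their means over the samples reached 0.5 TPM (a length-scaled share of the transcripts of a sample, which sum to 1000000), as did those of 12526 genes in all, which were tested. By role, 4 members take up or trap glucose, 15 belong to glycolysis, 2 encode lactate dehydrogenase subunits, 8 control pyruvate entry, 12 belong to the citric acid cycle and 3 to glycogen metabolism.

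Glycolysis splits glucose into pyruvate in the cytosol, and its committed step, phosphofructokinase, is switched on by fructose 2,6-bisphosphate. Pyruvate passes the inner mitochondrial membrane through a carrier and is oxidised by the pyruvate dehydrogenase complex to acetyl-CoA, which the citric acid cycle burns. The adult heart draws most of its energy from fatty acids and uses glucose and lactate alongside them, and many steps exist as isoforms, one widely expressed and another typical of muscle.

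RNA was taken from flash-frozen left (LV) and right (RV) ventricles of mice aged 12 to 14 weeks, labelled C57BL/6J, with 3 samples for each ventricle and genotype. In all animals the coding sequence of human phospholamban (PLN, the inhibitor of the calcium pump of the sarcoplasmic reticulum) had been inserted into exon 2 of the mouse gene. WT-PLN mice carried the wild-type human sequence, and R14del-PLN mice were heterozygous for the human sequence that lacks arginine 14. The line was a hybrid bred from 129/Sv-CP; C57Bl/6J chimeras and Sox2-Cre mice, and males were used. The titles of the mutant samples call them KO, and the genotype label was used to group them. The labels do not say which samples come from 1 animal, so p-values measure the spread between these samples.

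Pln itself lay between 1559 and 1963 TPM in the 12 samples, a mouse gene value that does not tell the human alleles apart. Mitochondrially encoded transcripts took 44.0% to 47.3% of all TPM in LV and 48.7% to 52.7% in RV of WT hearts, and 37.3% to 51.2% in LV and 51.1% to 54.5% in RV of R14del hearts. The median of all genes tested was shifted between RV and LV by -0.17 in WT and -0.08 in R14del hearts on the log2 scale. Differences and p-values below are not corrected for that shift, unless another scaling is named. Both samples of WT replicate 1 had the Y-linked Kdm5d, Eif2s3y, Ddx3y and Uty at 0.0159 to 0.191 TPM. The remaining 10 samples had them at 3.03 to 30.6 TPM, so the pair goes against the stated sex. The 8 cardiomyocyte markers were the highest of the marker lists, summing to 40045 to 61017 TPM. The 7 atrial cardiomyocyte markers summed to 52.4 to 1328 TPM, a spread within every group. In LV R14del the sum was 153 to 326 TPM, with Nppa at 141, 313 and 253 TPM. Myl7 was at 39.4, 0.512 and 299 TPM in LV WT and at 0.190, 0.440 and 0.329 TPM in LV R14del. In RV Myl7 was at 1.35, 320 and 1.46 TPM in WT and at 28.5, 212 and 5.75 TPM in R14del. Atrial transcripts were thus uneven between the genotypes in LV, and their part in the members' values was not tested.

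The 44 members together held 1.62% of all TPM in LV and 1.47% in RV of WT hearts, and 1.55% and 1.44% in R14del hearts. Glycolysis took the largest part, at 6220 ± 482 TPM in LV WT (SD, n = 3), followed by the citric acid cycle at 6026 ± 332 TPM (SD, n = 3). Pyruvate entry summed to 1785 ± 70.9 TPM, lactate dehydrogenase to 1344 ± 95.3 TPM, glycogen genes to 533 ± 33.2 TPM and glucose uptake and trapping to 257 ± 37.2 TPM in the same group (SD, n = 3 each). Single members ranged from Gapdh, the glyceraldehyde-3-phosphate dehydrogenase gene, with a mean of 1532 TPM, to Slc2a1, the basal glucose transporter GLUT1, with a mean of 3.77 TPM. Next to Gapdh stood Mdh1 (cytosolic malate dehydrogenase, mean 1392 TPM) and Aldoa (aldolase A, mean 1313 TPM). With mitochondrially encoded genes removed and the rest rescaled to the same total, the members summed to 2.99%, 2.89%, 3.00% and 3.01% in LV WT, LV R14del, RV WT and RV R14del.

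The first question was whether R14del changed these genes in either ventricle. No member was called in LV or RV, where a call needed a limma p, adjusted by Benjamini-Hochberg, that did not exceed 0.05 and a fold of at least 1.5. Of all 12526 genes, 0.519% were called in LV and 0.271% in RV. In LV, 15 members were higher and 29 lower in R14del, with a median log2 fold change of -0.07 beside -0.09 for all genes. In RV, 14 were higher and 30 lower, with medians of -0.04 and -0.00. Of all genes, 28.3% were higher in R14del in LV and 49.0% in RV. The direction of both medians over the members turned with quantile normalization, to 0.02 in LV and 0.03 in RV. At an unadjusted p of at most 0.05, 1 member was lower and none higher in LV (7.85% and 1.76% of all genes were), and none was higher or lower in RV (2.82% and 3.40% of all genes). The 95% confidence interval of the fold lay inside 1.5-fold in either direction for 39 members in LV and 38 in RV, so a change of that size was outside it. For the other members the interval reached beyond 1.5-fold.

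**Figure D1:**
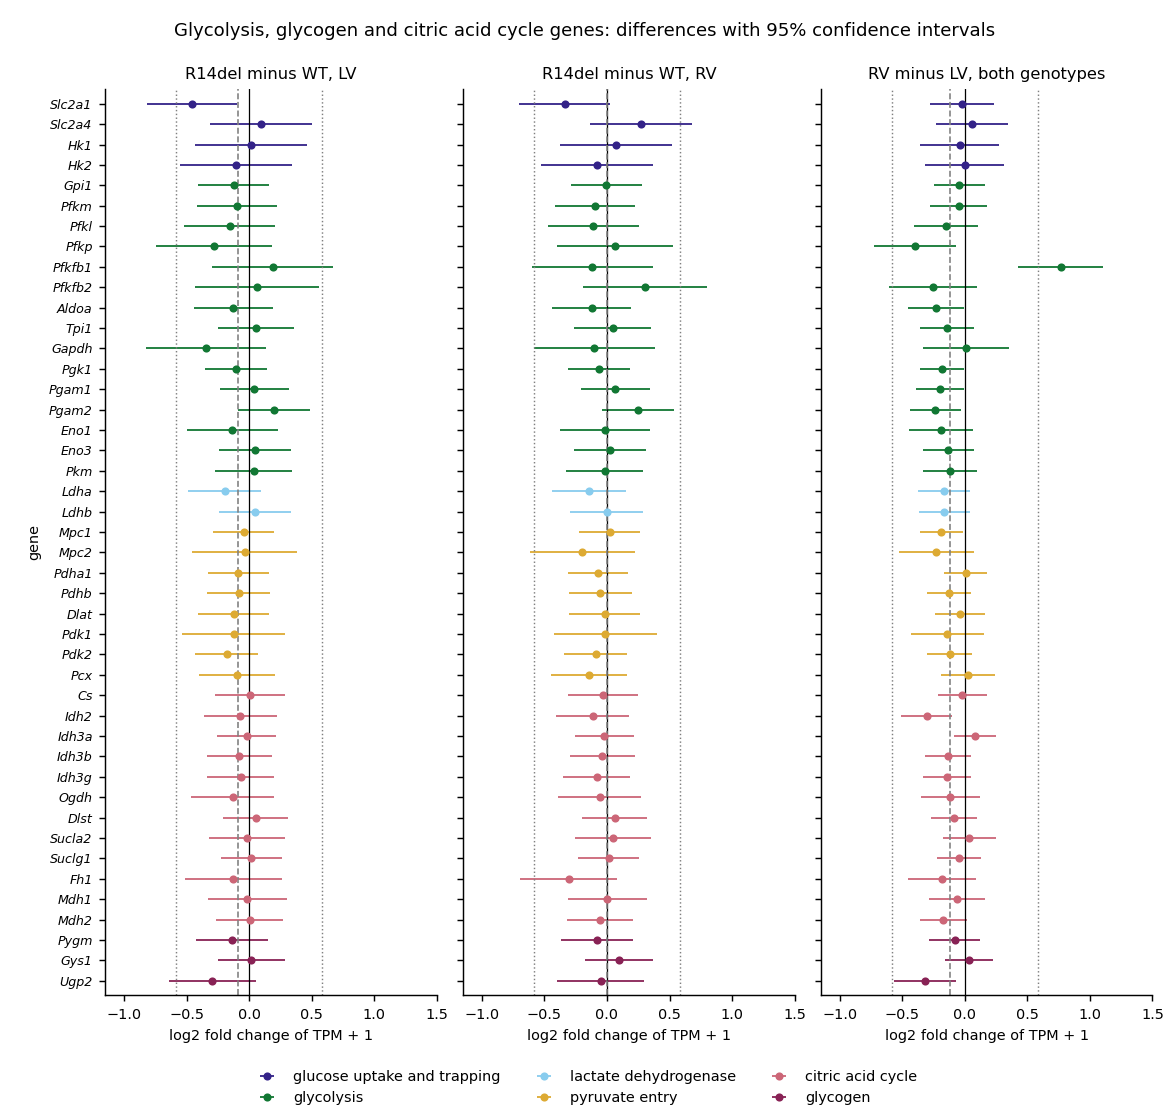
Log2 fold change of TPM + 1 (x axis) for each of the 44 members (y axis, coloured by role), for R14del minus WT in LV and in RV and for RV minus LV averaged over genotypes. Points are limma estimates, bars are 95% confidence intervals, the dashed line is the median of all genes tested and dotted lines mark a 1.5-fold change. Pfkfb1 at 0.77 in the ventricle comparison is the one interval that lies far from the rest.

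Slc2a1 had the smallest p of the members in both ventricles. It lies on chromosome 4 from 119108711 to 119137983 on the plus strand of GRCm38. In LV it was at 3.36, 4.69 and 5.83 TPM in WT replicates 1 to 3 and at 3.00, 2.92 and 3.19 TPM in R14del replicates 1 to 3. In RV it was at 3.55, 4.26 and 4.94 TPM in WT and at 3.78, 2.85 and 2.81 TPM in R14del. The genotypes did not overlap in LV, and in RV the mutant replicate 1 lay above WT replicate 1. The log2 fold change was -0.46 ± 0.17 in LV (SE, limma, adjusted p = 0.366, Benjamini-Hochberg) and -0.34 ± 0.17 in RV (SE, adjusted p = 0.846). In LV, groups without overlap occurred in 8.47% of all genes on the lower side and 2.48% on the higher side, so a single such member among 44 is not a result about the members. Without both WT replicate 1 samples the LV difference was -0.63 (limma adjusted p = 0.0686).

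Most red cell markers were lower in R14del at an unadjusted p, and none was called in either ventricle. The 5 markers (Hba-a1, Hba-a2, Hbb-bs, Hbb-bt, Alas2) summed to 2087 to 2316 TPM in LV WT and 1093 to 2142 TPM in LV R14del. In RV they summed to 1461 to 1736 TPM in WT and 956 to 1368 TPM in R14del. At an unadjusted p of at most 0.05, 4 of the 5 were lower in R14del in LV and 3 in RV, none at 0 in any sample. Of the 7 endothelial markers, 1 was higher at that p in each ventricle. Of the markers tested, 2 of 6 atrial, 1 of 7 fibroblast, 1 of 3 adipocyte and 1 of 3 skeletal muscle ones were lower in LV. None of these was lower at that p in RV. Of all genes, 7.85% were lower at that p in LV and 3.40% in RV. The part of any of these cell types in the Slc2a1 values was not tested. In bulk samples fewer cells of a type and less RNA per cell cannot be told apart.

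Ugp2 (UDP-glucose pyrophosphorylase, which makes the glucose donor for glycogen) was at 125, 142 and 128 TPM in LV WT and at 104, 92.5 and 126 TPM in LV R14del. In RV it was at 80.2, 109 and 103 TPM in WT and 78.8, 112 and 91.6 TPM in R14del. The genotypes overlapped in both ventricles, with log2 fold changes of -0.30 ± 0.16 in LV and -0.05 ± 0.16 in RV (SE, limma). Pgam2, the muscle phosphoglycerate mutase, was the member with the largest increase in LV and the one whose RV groups were apart. It was at 420, 467 and 459 TPM in LV WT and 486, 447 and 627 TPM in LV R14del. In RV it was at 344, 384 and 396 TPM in WT and at 451, 475 and 409 TPM in R14del, so every mutant RV sample lay above every WT one. Such a separation was found in 5.19% of all genes in RV towards higher and 5.79% towards lower values. The log2 fold change was 0.20 ± 0.13 in LV and 0.25 ± 0.13 in RV (SE, limma adjusted p = 0.708 and 0.903). After quantile normalization it was 0.29 and 0.36 (limma adjusted p = 0.0841 and 0.0472), so that in RV only the fold of 1.5 kept it uncalled. Over all alternatives the adjusted p in RV ran from 0.0472 to 1.

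Fh1 (fumarase of the citric acid cycle) had the smallest p in RV after Slc2a1 and Pgam2, and its difference rested on 1 sample. It was at 222, 204 and 231 TPM in RV WT and at 220, 122 and 206 TPM in RV R14del, and in LV at 230, 233 and 237 TPM in WT and at 199, 211 and 232 TPM in R14del. The lowest value belonged to RV R14del replicate 2. That sample also had the lowest Mpc2 (a subunit of the mitochondrial pyruvate carrier), at 144 TPM where the other 11 samples lay between 234 and 282 TPM. The log2 fold change of Fh1 in RV was -0.31 ± 0.18 (SE, limma adjusted p = 0.961), and -0.04 without that sample.

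No member passed the test of a different genotype effect between ventricles (limma interaction; 0 of 12526 genes called, with 96 genes higher and 31 lower at an unadjusted p of at most 0.05 and none of them a member). The 3 members with the smallest interaction p were Pfkp, Ugp2 and Pfkfb1, with differences of 0.34 ± 0.30, 0.24 ± 0.23 and -0.31 ± 0.32 on the log2 scale (SE).

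Isoform use was read as the ratio of a widely expressed gene to its muscle or heart counterpart within each sample, which does not depend on the total of the sample. These ratios were set out to compare ventricles. That the genotypes differed in some of them was seen in the values, and the genotype test was added afterwards, so it is a description of these samples and not independent evidence. The 6 pairs were Slc2a1 to Slc2a4 (the insulin-responsive transporter GLUT4), Hk1 to Hk2 (hexokinases), Pfkl to Pfkm (liver and muscle phosphofructokinase), Pgam1 to Pgam2, Eno1 to Eno3 (alpha and beta enolase) and Ldha to Ldhb (lactate dehydrogenase subunits typical of skeletal muscle and of heart).

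The muscle or heart isoform was the higher one in all 12 samples for each of the 6 pairs. Slc2a4 was at 136, 157 and 183 TPM in LV WT, 151, 154 and 203 TPM in LV R14del, 133, 152 and 180 TPM in RV WT and 164, 246 and 159 TPM in RV R14del. Its excess over Slc2a1 was the largest of the 6, from 31.4-fold to 86.3-fold. Hk2 over Hk1 was the smallest, from 1.25-fold to 1.83-fold.

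Ldhb was at 916, 992 and 1043 TPM in LV WT and 919, 905 and 1259 TPM in LV R14del, and at 873, 862 and 941 TPM in RV WT and 946, 909 and 820 TPM in RV R14del. Ldha was at 326, 367 and 387 TPM and at 273, 299 and 377 TPM in the same LV groups, and at 307, 295 and 339 TPM and at 301, 298 and 254 TPM in the RV groups. Both genes overlapped between genotypes in each ventricle. Their ratio did not overlap: Ldha to Ldhb was 0.356, 0.370 and 0.371 in LV WT against 0.297, 0.331 and 0.299 in LV R14del, and 0.352, 0.343 and 0.361 in RV WT against 0.318, 0.328 and 0.310 in RV R14del.

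The ratio of Ldha to Ldhb was 1.14-fold lower in R14del, a difference of -0.19 on the log2 scale over both ventricles. The ratio of Slc2a1 to Slc2a4 was also lower: it was 0.0247, 0.0300 and 0.0318 in LV WT against 0.0199, 0.0190 and 0.0157 in LV R14del. In RV it was 0.0267, 0.0281 and 0.0275 in WT against 0.0231, 0.0116 and 0.0177 in R14del. It was 1.61-fold lower in R14del (-0.68 on the log2 scale), with no overlap in either ventricle. For both ratios a two-sided exact permutation test of genotype within each ventricle gave p = 0.005, the smallest it can give over 400 arrangements, and a Benjamini-Hochberg value of 0.015 over the 6 ratios. That test treats LV and RV samples of a number as separate animals. When both samples of a number were averaged, the exact test of 3 against 3 gave p = 0.1 for each ratio, the smallest it allows. Without both WT replicate 1 samples the differences were -0.75 for Slc2a1 to Slc2a4 and -0.20 for Ldha to Ldhb. A lower ratio does not tell which of its 2 genes differed, and no genotype difference was called for Slc2a1, Slc2a4, Ldha or Ldhb.

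**Figure D2:**
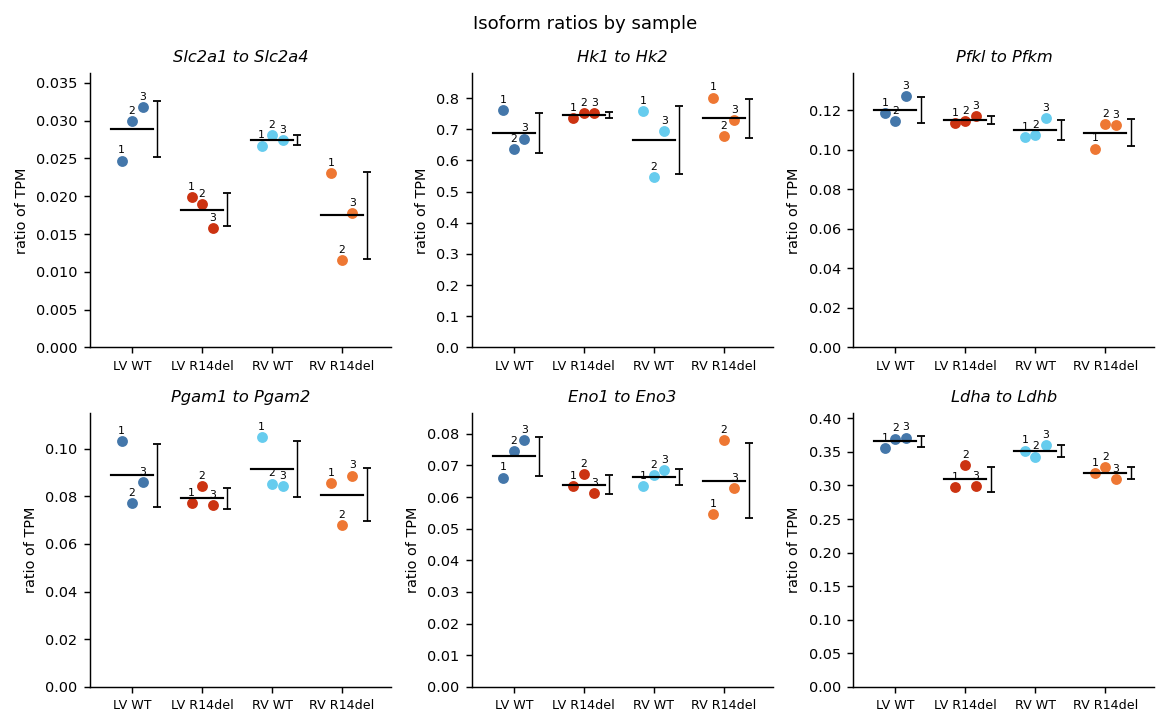
Ratio of TPM within each sample (y axis, starting at 0) for 6 isoform pairs, by group (x axis); points are samples labelled by replicate number, horizontal lines are means and bars are 1 SD (n = 3). The Slc2a1 to Slc2a4 and Ldha to Ldhb ratios do not overlap between genotypes in either ventricle, and the other 4 do.

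The other 4 ratios overlapped between genotypes in both ventricles, with differences of 0.14 for Hk1 to Hk2, -0.04 for Pfkl to Pfkm, -0.17 for Pgam1 to Pgam2 and -0.11 for Eno1 to Eno3 (exact permutation test, adjusted p from 0.225 to 0.35). Hk1 ranged from 28.0 to 50.3 TPM and Hk2 from 43.6 to 68.4 TPM over the 12 samples. In RV WT, where Hk1 was lowest, the replicates were at 35.7, 28.0 and 46.9 TPM, with Hk2 at 47.1, 51.2 and 67.4 TPM. In RV R14del, Hk1 was at 35.9, 46.3 and 32.9 TPM and Hk2 at 44.8, 68.4 and 45.1 TPM. In LV, Hk1 was at 36.5, 34.5 and 43.3 TPM in WT and 32.1, 34.8 and 50.3 TPM in R14del, and Hk2 at 48.0, 54.2 and 64.6 TPM and at 43.6, 46.3 and 66.8 TPM. Neither hexokinase separated the groups.

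Pfkm was at 309, 343 and 383 TPM in LV WT, 281, 300.2 and 393 TPM in LV R14del, 303, 321 and 375 TPM in RV WT and 314, 342 and 278 TPM in RV R14del. Pfkl was at 36.7, 39.2 and 48.7 TPM, 31.9, 34.3 and 46.1 TPM, 32.3, 34.4 and 43.5 TPM, and 31.7, 38.6 and 31.2 TPM in the same order. Pgam1 was at 43.4, 36.1 and 39.4 TPM, 37.4, 37.6 and 47.7 TPM, 36.01, 32.7 and 33.3 TPM, and 38.5, 32.3 and 36.2 TPM. In each of these genes the genotypes overlapped in both ventricles. Eno3 was at 743, 798 and 870.0 TPM in LV WT, 754, 749 and 1013 TPM in LV R14del, 716, 699 and 803 TPM in RV WT and 773, 784 and 698 TPM in RV R14del. Eno1 was at 49.1, 59.4 and 67.9 TPM, 47.9, 50.3 and 61.9 TPM, 45.5, 46.8 and 55.1 TPM, and 42.2, 61.1 and 43.9 TPM in the same order.

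Between ventricles no ratio passed the test. The differences, RV minus LV on the log2 scale, were -0.09 for Slc2a1 to Slc2a4, -0.04 for Hk1 to Hk2, -0.10 for Pfkl to Pfkm, 0.03 for Pgam1 to Pgam2, -0.06 for Eno1 to Eno3 and -0.01 for Ldha to Ldhb. The smallest two-sided exact p, permuting ventricle within genotype, was 0.025 for Pfkl to Pfkm, with an adjusted p of 0.15 over the 6 ratios.

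The second question was how RV and LV differ in these genes. One member was called, Pfkfb1, which encodes a bifunctional enzyme that makes and removes fructose 2,6-bisphosphate, the activator of phosphofructokinase. It lies on chromosome X from 150588229 to 150643878 on the plus strand of GRCm38. In WT it was at 9.75, 10.2 and 10.1 TPM in LV and at 20.96, 14.9 and 25.1 TPM in RV. In R14del it was at 9.19, 12.9 and 13.0 TPM in LV and at 26.6, 15.1 and 15.1 TPM in RV. Every RV sample lay above every LV sample of both genotypes, and in WT the LV samples were within 1 TPM of each other while the RV samples were spread.

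Over both genotypes Pfkfb1 was 1.70-fold higher in RV, with a 95% confidence interval of 1.34-fold to 2.16-fold (log2 fold change 0.77 ± 0.16, SE; limma adjusted p = 0.0495), on a scale of TPM + 1 that understates the change of low genes. It was 1 of 33 genes called in that comparison, 0.263% of those tested. At an unadjusted p of at most 0.05, 1 member (Pfkfb1) was higher and 8 were lower in RV, beside 0.998% and 20.5% of all genes. The difference was 0.92 ± 0.22 in WT and 0.61 ± 0.22 in R14del hearts (SE, limma adjusted p = 0.204 and 0.736). The call lay at its threshold: it was kept without RV WT replicate 2 and without RV R14del replicate 2, and lost without any of the other 10 samples (differences from 0.64 to 0.83, limma adjusted p from 0.0517 to 0.129). Without both WT replicate 1 samples the difference was 0.74 (limma adjusted p = 0.113), and with no filter on low values 0.77 (adjusted p = 0.0998).

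**Figure D3:**
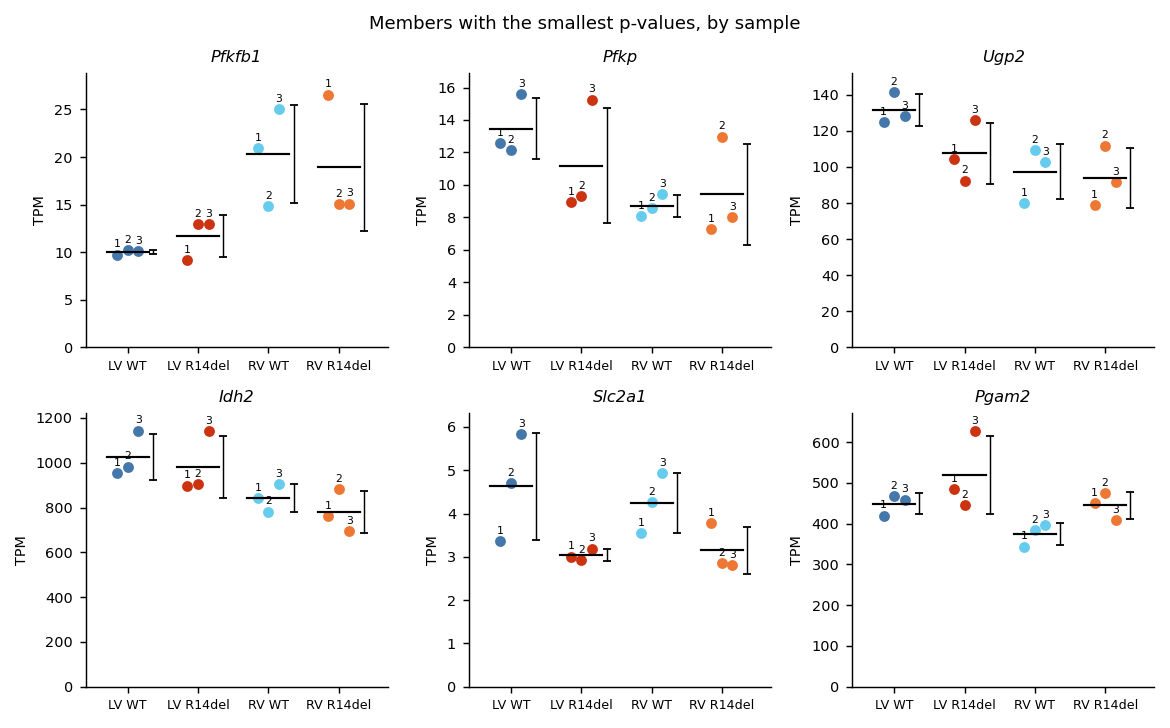
TPM (y axis, starting at 0) of 6 members in the 4 groups of ventricle and genotype (x axis); points are samples labelled by replicate number, horizontal lines are means and bars are 1 SD (n = 3). All RV samples of Pfkfb1 lie above all LV samples, while Pfkp, Ugp2 and Idh2 lie lower in RV of WT hearts without overlap, and Pfkp and Ugp2 overlap between ventricles in R14del hearts.

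Within each genotype no member and no other gene was called between ventricles (0 of 12526 in WT and in R14del by limma). At an unadjusted p of at most 0.05, WT had 82 genes higher (0.655%) and 1729 lower in RV (13.8%), and R14del had 63 higher (0.503%) and 760 lower (6.07%). Of the members, 1 was higher and 2 were lower in WT, and 1 was higher and 1 lower in R14del. With the replicate number as a block within genotype, 12 genes were called in WT and none of them was a member. The medians over the members were -0.13 in WT and -0.10 in R14del, beside -0.17 and -0.08 over all genes, and 38 and 32 of the 44 members were lower in RV. Of all genes, 14.1% in WT and 29.6% in R14del were higher in RV. The direction of the medians over the members turned with the scaling: averaged over genotypes the median was -0.12 as deposited, 0.07 after quantile normalization and 0.03 with mitochondrially encoded genes removed. The 95% confidence interval of the averaged fold lay inside 1.5-fold for 41 of the 44 members.

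Complete separation of RV from LV in WT was found for 11 members. Pfkfb1 was higher (0.974% of all genes were). Idh2, Idh3b, Mdh2, Mpc1, Pdhb, Pfkp, Pgam1, Pgam2, Pgk1 and Ugp2 were lower, 10 of 44 beside 25.2% of all genes. In R14del, Pfkfb1 was higher (1.26% of all genes) and Idh2 lower (8.72%). The share of members lower in WT was thus near that of all genes.

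Idh2, the mitochondrial NADP-linked isocitrate dehydrogenase, was the member apart in both genotypes on the lower side. It was at 954, 982 and 1143 TPM in LV and 841, 782 and 905 TPM in RV of WT hearts, and at 898, 904 and 1142 TPM in LV and 762, 882 and 696 TPM in RV of R14del hearts. Averaged over genotypes the log2 fold change was -0.31 ± 0.10 (SE, limma adjusted p = 0.108). Pfkp, the platelet phosphofructokinase, was at 12.6, 12.2 and 15.6 TPM in LV and 8.11, 8.58 and 9.43 TPM in RV of WT hearts, and at 8.94, 9.32 and 15.3 TPM and at 7.28, 13.0 and 8.01 TPM in R14del hearts. It differed by -0.57 ± 0.21 in WT hearts (SE, limma adjusted p = 0.297), and the ventricles overlapped in R14del hearts, where the difference of -0.23 was 0.0013 without LV R14del replicate 3. Ugp2, whose values are given above, differed by -0.44 ± 0.16 in WT and by -0.19 ± 0.16 in R14del hearts (SE, limma adjusted p = 0.294 and 0.925).

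Mdh2 (mitochondrial malate dehydrogenase) had the smallest p in R14del hearts after Pfkfb1 and Idh2. It was at 702, 669 and 889 TPM in LV and 678, 668 and 603 TPM in RV, and in WT hearts at 721, 732 and 783 TPM in LV and 675, 636 and 717 TPM in RV. The difference in R14del hearts was -0.20 ± 0.12 (SE, limma adjusted p = 0.845), and 0.04 after quantile normalization. In the average over genotypes, 20.5% of all genes were lower in RV at an unadjusted p of at most 0.05. The median over all genes was -0.12. Markers of several lists were lower as well. Averaged over genotypes, all 7 endothelial markers were lower at an unadjusted p of at most 0.05, with a median of -0.36, and their sum was 598 to 627 TPM in LV and 442 to 484 TPM in RV of WT hearts, and 538 to 768 TPM and 490 to 620 TPM in LV and RV of R14del hearts. At the same p, 3 of 5 red cell markers were lower (median -0.39), as were 3 of 8 cardiomyocyte markers (-0.09), 2 of 7 smooth muscle and pericyte markers (-0.38), 2 of the 3 skeletal muscle markers tested (-0.28), 1 of 7 macrophage and leukocyte markers (-0.23) and 1 of the 6 atrial markers tested (0.42). No fibroblast or adipocyte marker was, and none of any list was higher. The skeletal muscle list held the 1 marker called in this comparison. Of that list, Acta1 had means of 115 TPM in LV and 29.8 TPM in RV. Its myosin genes Myh1, Myh2 and Myh4 were at most at 0.0827 TPM in any sample. Of the lists with a lower marker, the cardiomyocyte and atrial ones had medians above that of all genes. The part of these cell types in the members' values was not tested.

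By role, the averaged RV minus LV medians on the log2 scale were -0.01 for glucose uptake and trapping, -0.15 for glycolysis, -0.17 for lactate dehydrogenase, -0.12 for pyruvate entry, -0.10 for the citric acid cycle and -0.08 for glycogen, beside -0.12 for all genes. Glycolysis had 13 of 15 members lower, the citric acid cycle 10 of 12 and pyruvate entry 6 of 8. In this comparison 17.9% of all genes and 18.2% of the members were higher in RV, so the share of members was near that of all genes. The subunits of the NAD-linked isocitrate dehydrogenase, which form 1 enzyme, differed in direction in TPM as deposited. Idh3b and Idh3g lay lower in RV in the mean (337 and 282 TPM against 377 and 310 TPM in WT), while Idh3a was at 247 TPM in RV and 233 TPM in LV. With the median of all genes in WT subtracted, the log2 differences were 0.01 for Idh3b, 0.03 for Idh3g and 0.25 for Idh3a. None of these subunits passed the test.

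The value of Gapdh, a gene often used as a reference for expression, differed between samples along with those of near-identical copies elsewhere in the genome. Gapdh lies on chromosome 6 from 125161715 to 125166467 on the minus strand of GRCm38, and 86 genes in the deposited tables are at least 95% identical to it over at least 80% of the shorter transcript. One of them, the processed pseudogene Gm13394 (chromosome 2, 28933610 to 28934609, minus strand), matches the transcript Gapdh-201 over 1000 bases with 1 substitution, A438C, counted from 1 at the 5′ end of Gapdh-201. This base is in exon 4 of 7, in the coding sequence, at position 125163016 of chromosome 6. The 29 bases around it are shown because they hold the only substitution over the 1000 aligned bases, with the differing base in capitals:

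Gapdh: agggtggagccaaaAgggtcatcatctcc

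Gm13394: agggtggagccaaaCgggtcatcatctcc

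The first stretch is found in transcripts of 69 annotated genes and the second in 1, Gm13394 (GENCODE M21). Gm10359 on chromosome 5 and Gm12671 on chromosome 4 match Gapdh-201 with 0 substitutions over 1002 bases.

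Gm13394 was listed at 0 to 1.11 TPM in 6 samples and at 892 to 1975 TPM in the other 6. In WT it was at 0, 0.219 and 896 TPM in LV and at 0.323, 0.385 and 892 TPM in RV. In R14del it was at 1585, 0.388 and 1975 TPM in LV and at 1741, 1.11 and 1469 TPM in RV. LV and RV samples with the same number were alike in all 6 cases, and high values were found in WT replicate 3 and R14del replicates 1 and 3. Gm7336, on chromosome 7, followed it, at 202 to 497 TPM in those 6 samples and 1.14 to 15.7 TPM in the others. Gm10359 and Gm12671 did the reverse, each listed at 0 in those 6 samples and at 128 to 231 TPM in the others.

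Gapdh itself was at 1635, 2154 and 1361 TPM in LV WT and 1159, 1605 and 1260 TPM in LV R14del, and at 1712, 1790 and 1238 TPM in RV WT and 1330, 1972 and 1172 TPM in RV R14del. The 6 samples with high Gm13394 held the 6 lowest Gapdh values, 1159 to 1361 TPM, and the others lay from 1605 to 2154 TPM. Gapdh with its copies summed to 2074, 2542 and 2517 TPM in LV WT, 3140, 2105 and 3748 TPM in LV R14del, 2005, 2101 and 2353 TPM in RV WT and 3432, 2409 and 2931 TPM in RV R14del.

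**Figure D4:**
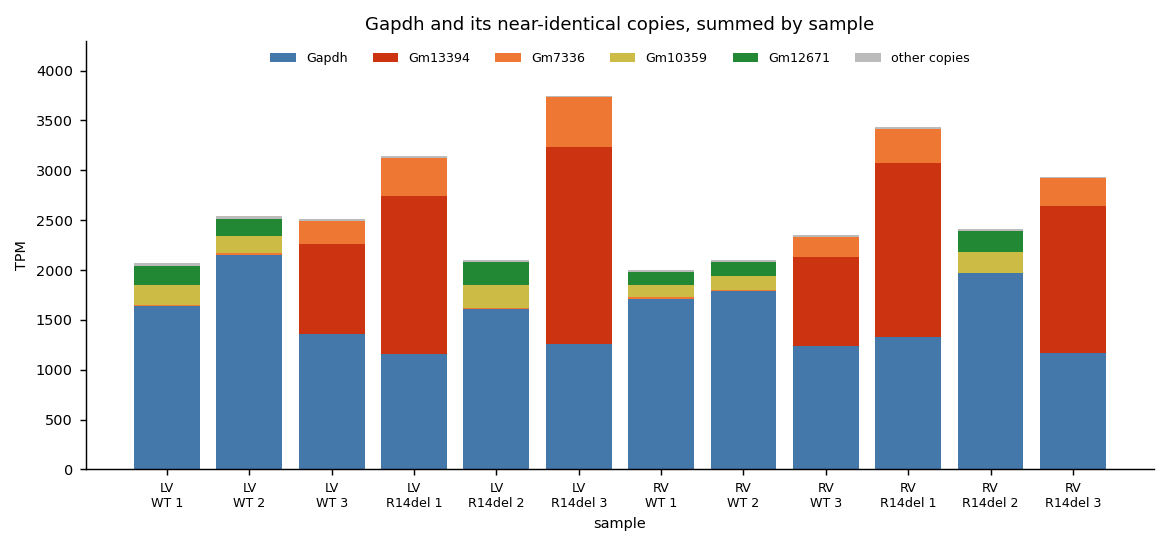
TPM (y axis) of Gapdh, 4 near-identical copies and all other copies stacked for each of the 12 samples (x axis, ventricle, genotype and replicate number). Gm13394 is at 892 to 1975 TPM in 6 samples and at most 1.11 TPM in the other 6, and both ventricles of a number are alike.

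The direction of the Gapdh difference turned when its copies were added to it. In LV the log2 fold change of R14del over WT was -0.34 ± 0.22 for Gapdh alone (SE, limma adjusted p = 0.692) and 0.30 for Gapdh summed with its copies (adjusted p = 0.690). In RV it was -0.10 ± 0.22 alone (SE) and 0.43 summed (limma adjusted p = 1 and 0.784). None of these was called. Gm13394 status was uneven between genotypes, with 1 of 3 numbers high in WT and 2 of 3 in R14del, and its part in the difference was not tested.

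Near-identical copies of other members held a smaller share of the summed TPM than those of Gapdh (41.4%). Copies made up 29.8% of the summed TPM of Eno1 and its 3 copies, most of it Eno1b, and 23.7% of that of Pgk1 (phosphoglycerate kinase) and its 2 copies, most of it Gm5537. For Pgam1 the share was 4.0%, for Pdhb 1.0%, and for Gpi1, Ldhb, Mpc1, Pkm and Tpi1 less than 0.05%. The ratio of Eno1 to Eno3 therefore carries an uncertainty that those of Ldha to Ldhb and Slc2a1 to Slc2a4 do not share to this degree.

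Of 89 further genes of the same pathways (other transporters, isozymes, complex subunits, glycogen enzymes, shuttles and branches), 82 were tested and none was called in any comparison by limma. At an unadjusted p of at most 0.05, 2 were higher and 5 lower in R14del in LV, and 1 was higher and 2 lower in RV. Of all genes, 1.76% were higher and 7.85% lower at that p in LV, and 2.82% and 3.40% in RV. Between ventricles 2 were higher and 6 lower in RV of WT, and 1 was higher and 4 lower in RV of R14del. For all genes these shares were 0.655% and 13.8% in WT, and 0.503% and 6.07% in R14del. The genes named next had the 2 smallest p-values of these pathway genes in a comparison. Gfpt2, which starts the hexosamine branch off glycolysis, was at 4.73, 11.1 and 11.8 TPM in LV WT and 2.26, 3.02 and 3.88 TPM in LV R14del, and at 3.68, 8.42 and 8.97 TPM in RV WT and 3.22, 1.70 and 2.08 TPM in RV R14del. Every mutant value lay below every WT value of its ventricle, with log2 fold changes of -1.27 ± 0.33 in LV and -1.22 ± 0.33 in RV (SE, limma adjusted p = 0.155 and 0.242). Such a separation towards lower values was found in 8.47% of all genes in LV and 5.79% in RV.

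Pck1, the cytosolic phosphoenolpyruvate carboxykinase, was at 0.895, 1.49 and 3.17 TPM in LV WT and at 0.425, 0.231 and 0.281 TPM in LV R14del, a difference of -1.04 ± 0.27 (SE, limma adjusted p = 0.153). Its genotypes overlapped in RV, at 0.887, 1.13 and 0.914 TPM in WT and 1.36, 0.171 and 0.344 TPM in R14del. Slc16a3, a lactate exporter, was at 1.01, 0.695 and 1.04 TPM in RV WT and at 0.547, 0.435 and 0.411 TPM in RV R14del, a difference of -0.38 ± 0.15 (SE, limma adjusted p = 0.634). Phkg1, the muscle catalytic subunit of phosphorylase kinase, was at 8.25, 13.5 and 9.47 TPM in LV and 17.7, 16.8 and 23.2 TPM in RV of WT hearts, 0.84 ± 0.23 higher in RV on the log2 scale (SE, limma adjusted p = 0.217). Gyg, the primer protein of glycogen, was at 80.2, 99.3 and 100.1 TPM in LV and 62.5, 69.7 and 73.4 TPM in RV of WT hearts, a difference of -0.43 ± 0.13 (SE, limma adjusted p = 0.252). In R14del hearts the 2 smallest p-values between ventricles were those of Eno1b, at 22.4, 21.3 and 28.7 TPM in LV and 19.4, 14.99 and 18.3 TPM in RV, and of Pck2, the mitochondrial carboxykinase, at 2.04, 2.07 and 2.65 TPM in LV and 1.77, 1.52 and 1.31 TPM in RV (differences of -0.43 and -0.36, limma adjusted p = 0.711 and 0.736). Eno1b is a near-identical copy of Eno1, and how reads were divided between them is not given in the sources used here, so the level of Eno1b is uncertain.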

How the data were processed

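The authors deposited 1 TPM value per gene and sample for 12 samples, used as deposited. The study names CLC Genomics Workbench and GRCm38 for mapping; the program and annotation behind the TPM values are not given in the sources used here. The library is described as polyA stranded in the methods and as a TruSeq kit in the labels. TPM values sum to 1000000 in each sample and hold no depth, so no counting error could be given. Replicates are separate samples by the labels.

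The 12526 genes whose mean reached 0.5 TPM entered a limma model (version 3.58.1, R 4.3.3) of log2(TPM + 1) with 4 group means and an intensity trend, which had 8 residual degrees of freedom and a prior of 5.15; p-values were adjusted by Benjamini-Hochberg over all of them. The model was tested on simulated data with independent samples and shifts larger than any member difference. That run therefore does not cover linked samples or changes of the size seen here. The main model had no block, so its p-values treat LV and RV samples as independent. Deviations from group means correlated between LV and RV samples of a number at 0.321 to 0.657 in WT hearts. Blocks on the replicate number were therefore run as alternatives, with statmod for the random block. Isoform ratios were compared by exact permutation tests in Python 3.11.15. Near-identical copies were sought with BLAST 2.17.0 in GENCODE M21, to which all 44 members matched.

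The members, gene lists and comparisons were chosen with earlier results of these data known. Values in every sample are given for members called in any comparison, the 3 with the smallest p in each, and the isoform pairs; of the other pathway genes, called ones and the 2 with the smallest p in each of 4 comparisons. Mpc2, Idh3a, Idh3b, Idh3g and the Gapdh copies were named after their values were seen. Alternatives were other pseudocounts, filters and scalings, blocks, summed copies and left-out samples.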

Additional observations from a re-analysis of the deposited data

How the results depend on the processing

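The count of members called stayed at 0 for R14del against WT in LV and in RV, for RV against LV in each genotype and for the interaction, under every alternative run, each sample left out included (the range was 0 to 0). Averaged over genotypes, the 1 member called between ventricles, Pfkfb1, became 0 with a pseudocount of 0.1, with no filter, with no intensity trend and without both WT replicate 1 samples, and ranged from 0 to 1 with single samples left out; its sign was kept in all 27 alternatives. The median of the members in LV by genotype went from -0.07 to 0.048 with upper quartile scaling and 0.021 with quantile normalization, and ranged from -0.18 to -0.0068 with single samples left out (-0.18 without LV R14del replicate 3). In RV it turned from -0.04 to 0.029 with quantile normalization, 0.0081 with mitochondrially encoded genes removed, 0.044 without RV WT replicate 3 and 0.018 without RV R14del replicate 3. The median between ventricles became 0.079, 0.066 and 0.0095 in WT hearts with quantile normalization, upper quartile scaling and mitochondrially encoded genes removed; in R14del hearts it became 0.080 with quantile normalization and 0.063 with mitochondrially encoded genes removed, and ranged from -0.17 to 0.023 with samples left out; averaged, it became 0.073, 0.021 and 0.025. The causes were not tested. In fits blocked on the replicate number, the members called averaged over genotypes remained at 1 and all other member counts at 0, while all genes called in that comparison went from 33 to 58 (number fixed), 63 (genotype and number random) and 95 (genotype and number fixed), and in LV by genotype from 65 to 119 and in RV from 34 to 62 (number fixed). LV and RV samples of a number correlated at 0.0542 to 0.389 in R14del hearts (mean 0.224, against -0.109 between numbers), so these correlations alone do not settle whether those numbers pair samples. Gm13394, at 0 to 1.11 or 892 to 1975 TPM, was alike in LV and RV of each number within a genotype. The Y-linked genes were low only in both WT replicate 1 samples. The labels do not state a pairing. Samples of a number in WT and R14del hearts correlated at -0.021 to 0.156 in LV and 0.061 to 0.219 in RV and share only a number. Among single genes, Gapdh turned to 0.30 in LV and 0.43 in RV when summed with copies and, in RV, to 0.057 with quantile normalization and 0.055 without RV R14del replicate 3 (range with samples left out -0.32 to 0.055); Mdh2 between ventricles in R14del hearts turned to 0.037 with quantile normalization, and Pfkp there to 0.0013 without LV R14del replicate 3 (range -0.46 to 0.0013). Of the ratios between ventricles, none of which passed the test, Pgam1 to Pgam2 turned to -0.0097 with quantile normalization; with samples left out, Slc2a1 to Slc2a4 ranged from -0.20 to 0.047, Hk1 to Hk2 from -0.090 to 0.028, Pgam1 to Pgam2 from -0.018 to 0.093 and Ldha to Ldhb from -0.019 to 0.019. Of the ratios between genotypes, added after the values were seen, Slc2a1 to Slc2a4 ranged from -0.80 to -0.55 and Ldha to Ldhb from -0.22 to -0.15 over 16 alternatives; their p was the smallest possible to begin with, so passing there says nothing of stability, and with both samples of a number averaged the exact p was 0.1, the smallest for 3 against 3. Hk1 to Hk2 passed at 0.22 without both WT replicate 1 samples, and Eno1 to Eno3 at -0.18 without RV R14del replicate 2, its range with samples left out being -0.18 to -0.055. TPM files hold no depth, so precision at low levels is unknown.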
